A study of Mus musculus with 31 samples.

Results

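The lecticans and the proteins that tie them into perineuronal nets were followed in caudate putamen (CPu) of female mice as 10 genes of the 52636 in the expression table. These were the lecticans *Ncan*, *Bcan*, *Acan* and *Vcan*, the link proteins *Hapln1*, *Hapln3* and *Hapln4*, the tenascins *Tnr* and *Tnc*, and the hyaluronan synthase *Has2*. The set was chosen by the TPM values of *Ncan*, which were lower after imipramine (IMN) in Brd1+/- mice, so that contrast is described here and not tested. Values were available for 31 mice of the line C57BL/6NTac-Brd1tm1.2Arte/AborgMmucd, 8 to 11 weeks old: 8 WT and 7 Brd1+/- mice injected with saline vehicle, and 8 WT and 8 Brd1+/- mice injected with IMN, a tricyclic antidepressant, at 10 mg/kg. Brd1+/- mice are heterozygous for a targeted allele of *Brd1*, a chromatin reader, in all cells of the body. Every mouse had been through swim and tail suspension tests before its brain was taken, vehicle administered mice included, and the values here come from its CPu punch. Levels are given as TPM, a transcript abundance divided by gene length and brought to a common total in all mice, so they can be set side by side between genes.

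Perineuronal nets are a condensed form of extracellular matrix around certain neurons, best known around the fast-spiking parvalbumin interneurons. Hyaluronan chains, made at the cell membrane by hyaluronan synthases, form the backbone. Lecticans are chondroitin sulfate proteoglycans that bind hyaluronan at one end and tenascin-R at the other, and link proteins lock the lectican to the hyaluronan.

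The 4 lecticans each lie beside a link protein gene on GRCm38, with 0 protein-coding genes between the partners in the GENCODE M21 annotation. *Ncan* (chromosome 8, 70093085 to 70120873, minus strand) and *Hapln4* (70083457 to 70090862, plus strand) are 2.22 kb apart. *Acan* (chromosome 7, 79053483 to 79115099, plus strand) and *Hapln3* (79115102 to 79131018, minus strand) end 0.002 kb from each other. *Vcan* (chromosome 13, 89655312 to 89742509, minus strand) and *Hapln1* (89539796 to 89611652, plus strand) are 43.7 kb apart, and *Bcan* (chromosome 3, 87987531 to 88000230, minus strand) is 21.5 kb from *Hapln2*. Where partners end so close, reads that reach past the end of one gene cannot be told apart from its neighbor's without strand. The other members, *Tnr* (chromosome 1, 159523769 to 159931729, plus strand), *Tnc* (chromosome 4, 63959785 to 64047015, minus strand) and *Has2* (chromosome 15, 56665627 to 56694539, minus strand), have no such partner.

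The promoters shown are those of the 2 most abundant lecticans. RefSeq start regions (GRCm38.p6, 250 bases before to 50 after the start) matched 8 of the 10 members, and *Hapln4* and *Has2* had no entry. The *Ncan* window is chr8:70120795-70121094 and the *Bcan* window chr3:88000307-88000606, both printed 5′ to 3′ on the minus strand of the chromosome, with capitals for matches on either strand. Of 5 motifs searched, those with a match in these windows, which did not overlap, were the CCAAT box, spelled as its name, the binding motif of Sp factors (GGGCGG), known as the GC box, and the promoter motif named TATA box, searched with the letters TATAAA.
Ncan: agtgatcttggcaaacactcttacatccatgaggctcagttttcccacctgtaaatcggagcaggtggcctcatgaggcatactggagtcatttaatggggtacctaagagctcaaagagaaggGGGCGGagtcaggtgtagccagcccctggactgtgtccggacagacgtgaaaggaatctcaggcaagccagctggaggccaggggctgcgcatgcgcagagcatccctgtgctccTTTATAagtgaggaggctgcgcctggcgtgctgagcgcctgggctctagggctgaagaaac
Bcan: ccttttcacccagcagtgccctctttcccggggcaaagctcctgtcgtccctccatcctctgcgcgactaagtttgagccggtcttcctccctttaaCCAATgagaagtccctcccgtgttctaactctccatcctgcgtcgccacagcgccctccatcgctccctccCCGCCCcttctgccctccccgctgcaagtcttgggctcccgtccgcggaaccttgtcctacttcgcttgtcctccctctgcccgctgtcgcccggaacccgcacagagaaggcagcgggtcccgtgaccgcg
Both windows hold 1 GC box, which 5 of the 8 matched members and 35.6% of 32817 RefSeq start regions hold. *Ncan* also has the letters of a TATA box, read from the other strand, as 13.6% of start regions do, and *Bcan* has a CCAAT box, as 37.4% do. Neither window held a CRE half-site (TGACG) or an E-box (CACGTG), found in 20.8% and 7.15% of start regions. These are matches of letters only, and GC content was 56.7% in the *Ncan* window and 64% in the *Bcan* window.

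The libraries were checked against their labels before any comparison. *Brd1* itself was lower in every Brd1+/- mouse than in every WT mouse of the same treatment, at 13.4 ± 2.0 TPM (SD, n = 7) against 22.5 ± 3.0 (SD, n = 8) under vehicle and 12.8 ± 1.0 (SD, n = 8) against 19.9 ± 2.7 (SD, n = 8) under IMN. Vehicle administered WT mouse 7, labelled female, had 26.8 TPM summed over 4 Y-linked genes, where the next mouse had 0.188. The summed level of 10 markers of cortical excitatory neurons, which CPu should lack, ran from 12.5 to 2016 TPM in vehicle administered WT mice, 12.005 to 1099 in IMN administered WT mice, 21.0 to 241 in vehicle administered Brd1+/- mice and 16.2 to 399 in IMN administered Brd1+/- mice, with none of the 10 at 0 throughout a group. Of the 8 vehicle administered WT mice, 6 (mice 1 to 5 and 7) lay above every vehicle administered Brd1+/- mouse, as did IMN administered WT mice 5 and 8 and IMN administered Brd1+/- mice 2, 4 and 7. The defining striatal markers *Drd1* and *Adora2a*, receptors of the spiny projection neurons, were at only 1.37 and 1.02 TPM in vehicle administered WT mouse 2, against a group median *Drd1* level of 88.8 TPM. *Drd1* was at 29.7, 78.5, 45.9 and 99.0 TPM in mice 1, 4, 5 and 7 of that group. It was at 140, 173 and 180 TPM in its mice 3, 6 and 8, and the other groups had medians of 157 to 183 TPM.

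The most abundant of these transcripts in CPu were those of the lecticans brevican and neurocan, and that of aggrecan, the lectican most used to mark nets, was near the bottom of the order. *Bcan*, which encodes brevican, averaged 112 TPM over the 31 mice, *Ncan*, which encodes neurocan, 56.3, and *Tnr*, the tenascin of the nets, 27.5. *Bcan* was above *Ncan* and *Ncan* above *Tnr* in 31 of 31 mice, so these ranks held in each mouse. *Hapln4*, a brain link protein, had a mean of 17.0 TPM and the widest range of the members, from 2.78 to 144 TPM, and it was above *Vcan* in only 8 of 31 mice, so that pair is not ordered by its means. Its median of 5.87 TPM was below that of *Vcan*, 12.1, and of *Hapln1*, 7.46. *Vcan*, which encodes versican, averaged 11.7 TPM and *Hapln1*, the link protein first found in cartilage, 7.83, with *Vcan* higher in 27 of 31 mice.

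The remaining members were far lower, and *Hapln1* was above *Acan* in 31 of 31 mice. *Acan* averaged 0.519 TPM, *Tnc*, a tenascin of development and injury, 0.379 and *Hapln3* 0.336. *Tnc* was above *Hapln3* in 17 of 31 mice, so the levels of these 2 genes did not differ beyond their spread. *Has2* was listed at 0 in 13 of 31 mice and was above 0.1 TPM in 2, and it did not pass the filter on low values that the other 9 members passed.

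**Figure D1:**
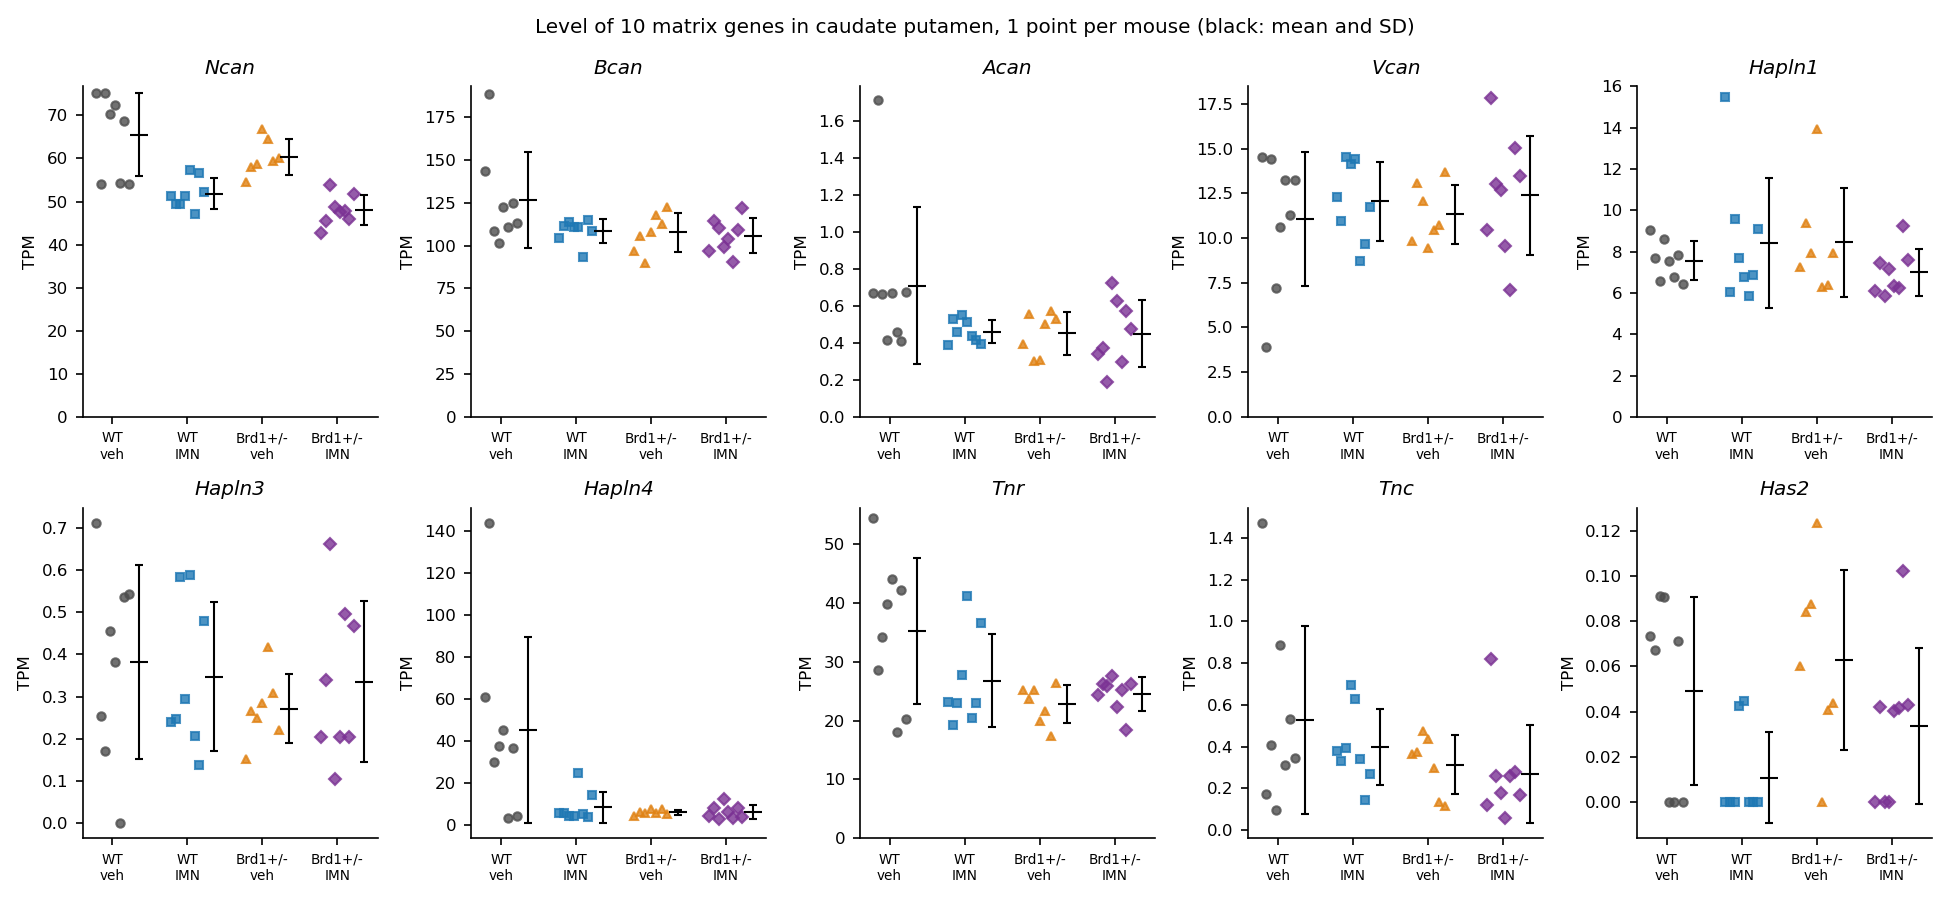
TPM of each member (vertical axis, linear, one scale per panel) in each mouse by group (horizontal axis), with the group mean and SD in black (n = 8, 8, 7 and 8). The *Ncan* levels of the 2 Brd1+/- groups do not overlap, and in *Hapln4* 6 vehicle administered WT mice stand above all vehicle administered Brd1+/- mice.

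Among the lecticans, *Bcan* held most of the summed TPM in every group and *Ncan* the next largest part. The *Bcan* share came to 61.6 ± 6.4% (SD, n = 8) for WT mice given vehicle, 62.8 ± 1.2% (SD, n = 8) in IMN administered WT mice, 59.8 ± 2.1% (SD, n = 7) in vehicle administered Brd1+/- mice and 63.4 ± 1.3% (SD, n = 8) in IMN administered Brd1+/- mice. The *Ncan* share was 32.5 ± 5.4%, 30.0 ± 1.4%, 33.6 ± 2.1% and 28.9 ± 2.3% in the same order. *Vcan* held between 5.56% and 7.37% on average and *Acan* between 0.250% and 0.337%. The shares of vehicle administered WT mice had the largest SD, and in mouse 2 of that group *Bcan* had the highest share, 76.0%, and *Ncan* the lowest, 21.8%. The summed lectican level was 204 ± 26, 173 ± 11, 180 ± 14 and 167 ± 15 TPM in the same order of groups.

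**Figure D2:**
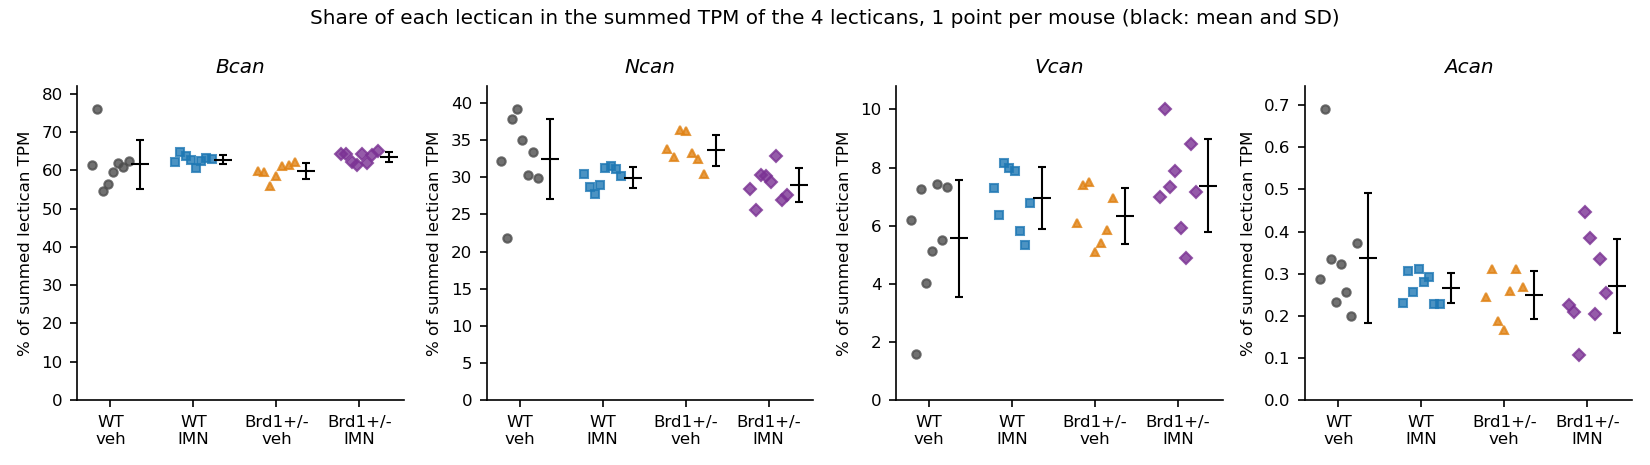
Share of each lectican in the summed TPM of *Bcan*, *Ncan*, *Vcan* and *Acan* (vertical axis, percent, from 0), 1 point per mouse and mean with SD in black. Mean *Bcan* shares lie between 59.8% and 63.4% and mean *Ncan* shares between 28.9% and 33.6%.

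The effect of IMN in WT mice shares no animal with the contrast that led to the choice of genes, and all 9 members that passed the filter were tested in it. The members were still chosen with earlier results of these data known, so the test is not fully independent of that choice. *Ncan* and *Hapln4* were lower with IMN at the unadjusted threshold of p under 0.01, which the study used for its sequencing, and the other 7 did not pass it. These 2 of 9 stand beside 6.95% of all 23579 genes tested, with 5.6% lower. The called genes were lower in 1321 of 1639 cases, and in 748 of 1414 after median-of-ratios scaling, an alternative to TPM alone. Neither passed a false discovery rate (FDR) of 5%, as 1 gene of all tested (0.00424%) did. That count turned on single mice and on the fit, being 1176 without vehicle mouse 6, 2459 without vehicle mouse 8 and 2291 with all 4 groups in one fit. Mice 6 and 8 were the only vehicle mice not above the Brd1+/- vehicle range of cortical markers. Leaving out either raised the cortical marker level of the vehicle group. *Ncan* (limma, adjusted p = 0.0470 without mouse 6 and 0.0401 without mouse 8) and *Hapln4* (limma, adjusted p = 0.0470 and 0.0410) passed when 1 of these mice was left out. No result of theirs is given for the fit of all 4 groups, which takes part of its spread from the Brd1+/- mice behind the choice of genes. In tissue RNA, fewer cells of a type and less RNA per cell cannot be told apart.

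*Ncan* was between 54.0 and 75.2 TPM in vehicle administered WT mice, with a median of 69.5, and between 47.2 and 57.4 TPM with IMN, with a median of 51.3. In the vehicle group 5 mice lay above every IMN administered mouse, while mice 2, 6 and 8, at 54.0, 54.2 and 54.1 TPM, lay within the IMN range. The log2 difference, on the log2(TPM + 1) scale used for all tests, was −0.32 ± 0.09 (SE), that is 0.801 of the vehicle level (limma, p = 0.00169, adjusted p = 0.141, exact permutation p = 0.0042). It ranged from −0.36 to −0.29 when each mouse was left out in turn, and the call was kept each time. Median-of-ratios scaling, which moved the median difference of all genes from −0.08 to 0.00, gave −0.20 for *Ncan* (limma, adjusted p = 0.163).

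*Hapln4*, the genomic neighbor of *Ncan*, differed far more and less evenly. Its 8 vehicle administered WT mice, in number order, had 61.2, 144, 29.9, 37.6, 45.4, 3.62, 36.7 and 4.38 TPM. The IMN administered WT mice had 5.87, 5.82, 4.52, 4.60, 24.8, 5.27, 4.01 and 14.6 TPM. Mice 6 and 8 of the vehicle group lay at the level of most IMN administered mice, and the other 6 lay above all of these. The difference was −1.83 ± 0.62 (SE), or 0.281 of the vehicle level (limma, p = 0.00861, adjusted p = 0.141, exact permutation p = 0.0187). The call was lost in 12 of 16 fits that left out 1 mouse, these being vehicle mice 1 to 5 and 7 and IMN mice 1 to 4, 6 and 7, with differences between −2.21 and −1.50 over the 16 fits.

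The *Hapln4* level moved with the cortical markers named above. The 6 vehicle administered WT mice with cortical markers above the Brd1+/- vehicle range had *Hapln4* between 29.9 and 144 TPM, and the other 2, mice 6 and 8, had 3.62 and 4.38. The 2 IMN administered WT mice above that range, mice 5 and 8, were also the highest of their group, at 24.8 and 14.6 TPM. Without the mice above the range, which leaves 2 against 6, the *Hapln4* difference was 0.26, in the other direction (limma, adjusted p = 0.664) and that of *Ncan* was −0.09 (limma, adjusted p = 0.778). *Ncan* was higher above the range in both WT groups, with medians of 71.4 TPM above and 54.2 within it under vehicle and 54.8 and 50.4 with IMN. In IMN administered Brd1+/- mice it was not, at 46.0 above and 47.8 within the range, and WT vehicle mouse 2, with the highest cortical marker score (the mean log2(TPM + 1) of the 10), had the lowest *Ncan* of its group. With the cortical marker score as a covariate it was −0.55 for *Hapln4* (limma, adjusted p = 0.744) and −0.22 for *Ncan* (limma, adjusted p = 0.683), and in neither of these fits did a member pass the threshold. With the striatal marker score as the covariate *Ncan* was at −0.33 and kept its call (limma, adjusted p = 0.757), while *Hapln4* was at −0.69 and lost it (limma, adjusted p = 0.815). All 10 cortical markers had differences below 0, with a median of −2.08, and 1 of them passed p under 0.01, while all 10 striatal markers lay above 0, with a median of 1.48, and 0 passed. At the same threshold 2 of 5 markers of parvalbumin interneurons were lower, with a summed level of 32.2 to 361 TPM under vehicle and 30.8 to 82.8 with IMN. Without the mouse with Y-linked reads, *Ncan* was at −0.31 and *Hapln4* at −1.77, the latter no longer past the threshold (limma, adjusted p = 0.208 for both), and without mouse 2 of the same group they were at −0.36 (limma, adjusted p = 0.207) and −1.50 (limma, adjusted p = 0.231), with the same loss.

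**Figure D3:**
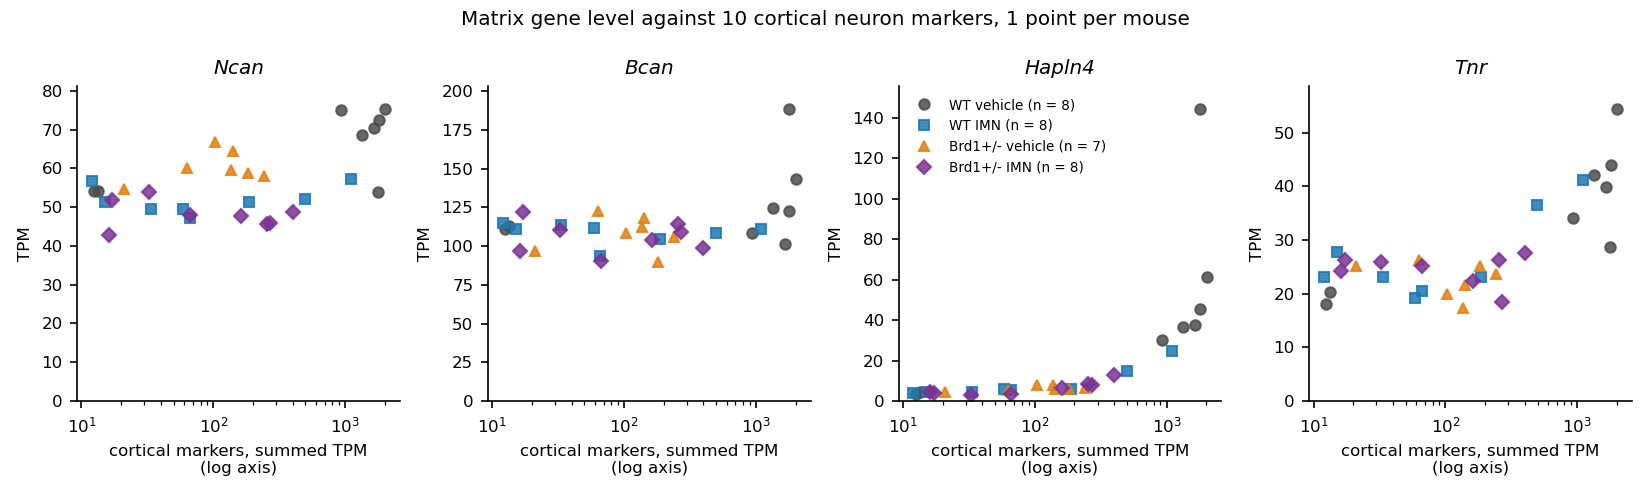
TPM of 4 members (vertical axis, from 0) against the summed TPM of 10 cortical excitatory neuron markers (horizontal axis, log scale), 1 point per mouse, shape and color by group. *Hapln4* is at most 12.7 TPM in mice with a marker sum of up to 399 TPM and between 14.6 and 144 TPM in the mice above it, and *Bcan* lies between 90.03 and 188 TPM.

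The other lecticans and tenascins did not pass the threshold with IMN in WT mice. *Bcan* was at 127 ± 28 TPM (SD, n = 8) under vehicle and 109 ± 7 (SD, n = 8) with IMN, a difference of −0.20 ± 0.10 (SE; limma, p = 0.0779, adjusted p = 0.263, exact permutation p = 0.0679), and 1 mouse at 188 TPM, vehicle mouse 2, set much of the vehicle spread. *Tnr* was between 18.0 and 54.4 TPM under vehicle and between 19.2 and 41.1 with IMN, and its difference of −0.34 had an SE of 0.22 (limma, p = 0.133, adjusted p = 0.347, exact permutation p = 0.165). *Acan* was at −0.20 ± 0.11 (SE; limma, p = 0.0867, adjusted p = 0.278, exact permutation p = 0.0328), with vehicle mouse 2 the highest at 1.71 TPM. Without that mouse the difference was −0.10 for *Acan*, −0.11 for *Bcan* and 0.01 for *Vcan*, which was 0.18 with it. *Vcan*, *Hapln1*, *Hapln3* and *Tnc* had differences between −0.09 and 0.18, each smaller than its SE. The median over the 9 members was −0.20, and over all genes tested −0.08.

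In Brd1+/- mice the same treatment was the contrast that picked the genes, and its values are given without a test. *Ncan* was at 54.6, 58.0, 58.7, 66.9, 64.5, 59.5 and 60.1 TPM in the 7 vehicle administered mice, in number order, and at 42.7, 45.5, 53.8, 48.8, 47.6, 47.8, 46.0 and 51.9 TPM in the 8 with IMN. The groups did not overlap, the highest IMN administered mouse lying at 53.8 TPM and the lowest vehicle administered mouse at 54.6, as groups did not for 0.0999% of the 23020 genes fitted, 0.0738% in this direction. The difference was −0.32 ± 0.06 (SE), or 0.799 of the vehicle level, beside −0.32 ± 0.09 in WT mice. It lay between −0.35 and −0.30 under all the alternatives and with each mouse left out. The cortical markers had median sums of 137 TPM under vehicle and 114 with IMN, and without the 3 mice above the range the difference was −0.30. The vehicle mice of this contrast set the range, so only IMN administered mice could fall outside it.

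For each of the other 8 members that passed the filter, IMN and vehicle administered Brd1+/- mice overlapped. *Hapln1* had the next largest difference, −0.21 ± 0.14 (SE), in which the highest vehicle administered mouse, mouse 4 at 13.9 TPM, was far from the rest of its group at 6.29 to 9.38. *Hapln4* was at 6.23 ± 1.21 TPM (SD, n = 7) and 6.27 ± 3.32 (SD, n = 8), a difference of −0.10 ± 0.24 (SE), and *Bcan* at 108 ± 12 and 106 ± 10 TPM, a difference of −0.02 ± 0.08. *Tnr* was at 0.11 ± 0.10 (SE). The median over the 9 members was −0.02, and over all genes fitted 0.01. The values for WT and Brd1+/- mice differed most for *Hapln4*, by 1.73 on the log2 scale, and by −0.003 for *Ncan*; the interaction was not tested, because it contains the contrast behind the choice of genes. Without the mice above the cortical marker range *Hapln4* was at 0.26 in WT and −0.49 in Brd1+/- mice, and *Ncan* at −0.09 and −0.30. That range left 2 vehicle administered WT mice but all 7 vehicle administered Brd1+/- mice, so the genotypes are not treated alike by it.

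**Figure D4:**
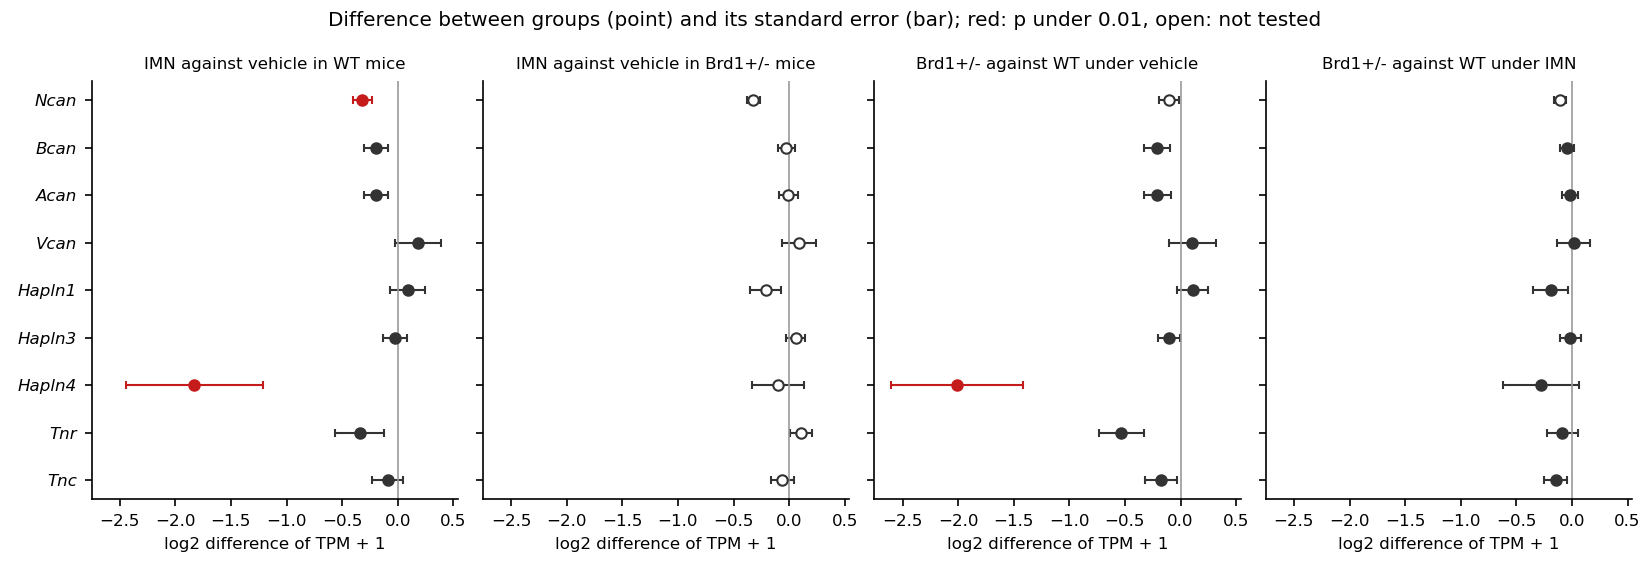
Log2 difference of TPM + 1 (horizontal axis) with its standard error for the 9 members that passed the filter, in 4 comparisons. Red points have p under 0.01, black points were tested and did not pass it, and open points were not tested, being *Ncan* in every comparison that includes Brd1+/- mice and all members in the Brd1+/- drug contrast.

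Brd1+/- and WT mice were then compared under vehicle, with *Ncan* described only, since these Brd1+/- mice had a part in its choice. *Hapln4* was the 1 of 8 tested members past the threshold, and it was lower in Brd1+/- mice, where 13.6% of all 23200 genes were past it and 12.1% were lower, that is 2811 of 3153 called genes, or 1236 of 2135 after median-of-ratios scaling. Of all genes 0 (0%) passed an FDR of 5% in limma, while 7168 had an unadjusted p under 0.05. This count of 0 became 1833 with a mean TPM of at least 1, 3583 with the replicate block, 4963 with all 4 groups in one fit, and 4563 and 5482 without WT mouse 6 or 8, and in these fits *Hapln4* passed as well (limma, adjusted p between 0.00848 and 0.0470). WT mice 6 and 8 were the only ones of their group not above the Brd1+/- range of cortical markers. All 7 Brd1+/- mice had *Hapln4* between 4.39 and 7.81 TPM, against the 2 WT mice, 6 and 8, at 3.62 and 4.38 and the other 6 at 29.9 to 144. The difference was −2.01 ± 0.59 (SE; limma, p = 0.00367, adjusted p = 0.0571, exact permutation p = 0.0112). Without the 6 WT mice above the Brd1+/- range of cortical markers it was 0.52, in the opposite direction and not past the threshold (limma, adjusted p = 0.945), a fit with 2 WT mice. Without WT mouse 7 it was −1.96 (limma, adjusted p = 0.0984) and without mouse 2 −1.68 (limma, adjusted p = 0.0887).

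*Tnr*, which joins the lecticans of neighboring molecules in the net, came next. It was at 17.4 to 26.4 TPM in Brd1+/- mice with a median of 23.7 and at 18.0 to 54.4 TPM in WT mice with a median of 37.0, and the 6 WT mice with the higher cortical markers were the 6 above all Brd1+/- mice. The difference was −0.53 ± 0.20 (SE; limma, p = 0.0179, adjusted p = 0.0941, exact permutation p = 0.0305), which did not pass the threshold, and without those mice it was 0.23 (limma, p = 0.157, adjusted p = 0.945). When WT mouse 6 or 8, those without high cortical markers, was left out *Tnr* passed it, with differences of −0.66 and −0.63. *Bcan* and *Acan* were both at −0.21 ± 0.12 (SE), or −0.13 and −0.11 without WT mouse 2, and the remaining differences lay between −0.18 and 0.11. *Ncan* was at −0.11 ± 0.09 (SE), and at 0.08 after median-of-ratios scaling, a scaling that moved the median of all genes from −0.13 to −0.001. It was at 0.01 with the cortical score as a covariate and at 0.15 without the WT mice above the cortical marker range, so its direction under vehicle differed between alternatives. Under vehicle the median of all genes was −0.13 and that of the 9 members −0.18. All 10 cortical markers had differences below 0 in Brd1+/- mice, with a median of −2.03, and all 10 striatal markers above 0, with a median of 1.63, of which 2 and 1 passed p under 0.01. Of the 5 parvalbumin interneuron markers 4 were below 0, with a median of −0.65 over the 5, and 2 passed.

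Under IMN, Brd1+/- and WT mice did not differ in any of the 8 tested members at p under 0.01, where 0.703% of 23339 genes did (164, with 120 lower, or 158 with 85 lower after median-of-ratios scaling). In limma the smallest p among them was that of *Tnc*, at −0.15 ± 0.10 (SE; p = 0.169, adjusted p = 0.998, exact permutation p = 0.184). *Hapln4* was at −0.28 ± 0.34 (SE), with WT mice 5 and 8 above the highest Brd1+/- mouse at 12.7 TPM and all others within the Brd1+/- range. *Bcan* was at −0.04 ± 0.06, or 0.004 after that scaling, and *Tnr* at −0.09 ± 0.14. *Ncan*, not tested, was at 48.0 ± 3.5 TPM (SD, n = 8) in Brd1+/- and 51.8 ± 3.5 (SD, n = 8) in WT mice, a difference of −0.11 ± 0.06 (SE). In this pair of groups the cortical markers had median sums of 114 and 62.5 TPM.

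Beyond the members, 52 genes of matrix chemistry and signaling were followed in lists by role. In WT mice, 4 of the 50 that passed the filter were called with IMN, all lower, beside the 6.95% of all genes, and their median difference was −0.08, equal to that of all genes to 2 decimals. *Nptx2*, a pentraxin that gathers AMPA receptors at synapses on parvalbumin interneurons, fell from 50.5 ± 13.9 to 28.6 ± 8.2 TPM (SD, n = 8 and 8; log2 difference −0.79 ± 0.19 SE; limma, adjusted p = 0.141). *Rtn4r*, the Nogo receptor, which also binds chondroitin sulfate proteoglycans, was listed at 0 in 2 of 8 vehicle administered and 6 of 8 IMN administered WT mice, with highest values of 75.7 and 20.2 TPM (limma, adjusted p = 0.141). The protease *Adamts8* fell to 0.212 ± 0.088 from 0.675 ± 0.434 TPM (limma, adjusted p = 0.141), and *Layn*, the hyaluronan receptor layilin, to 1.02 ± 0.68 from 2.67 ± 1.48 TPM (limma, adjusted p = 0.141). With 1 mouse left out *Layn* lost its call in 9 of 16 fits (vehicle mice 1 to 5 and IMN mice 3 and 5 to 7), with differences from −0.96 to −0.69. *Rtn4r* lost its call in 2 of 16 (vehicle mice 2 and 5), with differences from −3.67 to −2.78. It was above 0.1 TPM in 6 vehicle and 2 IMN administered mice, where the filter needs 7. It thus passed the filter only through the group where it was high, and its call is to be read as a description. Without the mice above the Brd1+/- range of cortical markers the *Nptx2* difference was −0.30 (limma, adjusted p = 0.637), that of *Adamts8* −0.22 (limma, adjusted p = 0.593) and that of *Layn* −0.03 (limma, adjusted p = 0.988).

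Between the genotypes under vehicle, 7 of 49 related genes were called, 6 lower and 1 higher in Brd1+/- mice, beside the 13.6% of all genes. In the list of proteoglycan receptors and net ligands all 6 tested genes had differences below 0, and 4 passed the threshold. These were *Rtn4r*, listed at 0 in 6 of 7 Brd1+/- mice (limma, adjusted p = 0.0556), *Nptx2* (31.2 ± 5.7 against 50.5 ± 13.9 TPM; limma, adjusted p = 0.0556), *Ptprs*, a phosphatase receptor of chondroitin sulfate (134 ± 18 against 208 ± 61 TPM; limma, adjusted p = 0.0556), and *Sema3a*, a repulsive ligand held in nets (5.12 ± 0.76 against 6.53 ± 0.89 TPM; limma, adjusted p = 0.073). *Rtn4r* was above 0.1 TPM in 6 WT mice and 1 Brd1+/- mouse, just the 7 that the filter needs. It was thus tested only through the group where it was high, and its call is to be read as a description. In the chondroitin sulfate list *Csgalnact1*, which starts the chain, was lower and *Ust*, a uronyl sulfotransferase, was higher at 15.2 ± 1.6 against 11.5 ± 1.8 TPM (limma, adjusted p = 0.0556), and the other 14 tested did not pass. With 1 mouse left out *Csgalnact1* lost its call in 6 of 15 fits (WT mice 1, 4, 5 and 7 and Brd1+/- mice 1 and 7), with differences from −1.29 to −0.95. *Adamts8* was the 1 of 12 proteases and inhibitors called. Without the WT mice above the cortical marker range the differences were 0.02 for *Nptx2*, −0.03 for *Ptprs*, 0.35 for *Csgalnact1*, 0.14 for *Ust*, −0.22 for *Adamts8* and −0.17 for *Sema3a*, none past the threshold in this fit with 2 WT mice (limma, adjusted p between 0.945 and 0.99), and *Rtn4r* did not pass the filter there. *Adamts8* stayed below 0 under all 9 alternatives that gave it a value (−1.20 to −0.22). *Rtn4r* was below 0 under 8 (−5.64 to −1.63), but since its high group let it past the filter, this direction adds no support. It kept its call with the cortical score as a covariate (limma, adjusted p = 0.278) and lost it with the striatal score (limma, adjusted p = 0.533). With 1 mouse left out it had a value in only 8 of 15 fits. Under IMN 0 of 47 related genes differed between the genotypes at p under 0.01.

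In Brd1+/- mice, where *Ncan* was lower with IMN, the enzymes and partners of its matrix were on both sides of 0. Of the 46 related genes that passed the filter 27 had differences above 0 and 19 below, with a median of 0.02 beside 0.01 over all genes. The highest was *Hapln2*, the link protein of nodes of Ranvier in myelinated axons, at 0.60 ± 0.32 (SE), and the lowest *Hyal1*, a hyaluronidase, at −0.36 ± 0.25 (SE). *Nptx2* lay furthest from 0 in units of its SE, at −0.28 ± 0.10, with 31.2 ± 5.7 TPM (SD, n = 7) under vehicle and 25.1 ± 1.3 (SD, n = 8) with IMN. *Hapln2* was at 24.8 ± 9.0 TPM (SD, n = 7) under vehicle and 40.1 ± 19.3 (SD, n = 8) with IMN, and oligodendrocyte markers had median sums of 2310 and 3003 TPM in the same groups. The part of the oligodendrocyte markers in this value was not tested.

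The genes whose levels followed *Ncan* most closely from mouse to mouse were sought after taking each group's mean from its mice, over 31 mice and the 18194 genes above 0.1 TPM in all of them. They were *Cnnm4*, a magnesium transport protein gene, with Pearson's r of 0.88, *Fam53c* with 0.85, *Elfn2* with 0.82, *Fads2*, a fatty acid desaturase, with 0.82, and *Med15*, a subunit of the Mediator complex, with 0.81. Within the groups, r for *Cnnm4* ran from 0.66 to 0.97, with the highest value in vehicle administered WT mice, whose libraries also differ most in their cortical markers. For *Elfn2* it was 0.96 in that group and 0.16 in vehicle administered Brd1+/- mice, and for *Fads2* 0.95 and 0.36. Among the members *Tnr* had r of 0.64 with *Ncan*, at rank 481 of the genes compared, *Hapln4* 0.34, *Vcan* 0.22, *Hapln1* 0.16, *Bcan* 0.02 and *Acan* −0.30. The value for *Tnr* came to 0.87 within vehicle administered WT mice and −0.47 within vehicle administered Brd1+/- mice, so it did not hold in each group. Without vehicle administered WT mouse 2, r was 0.64 for *Tnr* and *Hapln4*, 0.40 for *Bcan*, −0.02 for *Acan* and −0.04 for *Vcan*. These are descriptions of levels that share libraries and scaling.

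**Figure D5:**
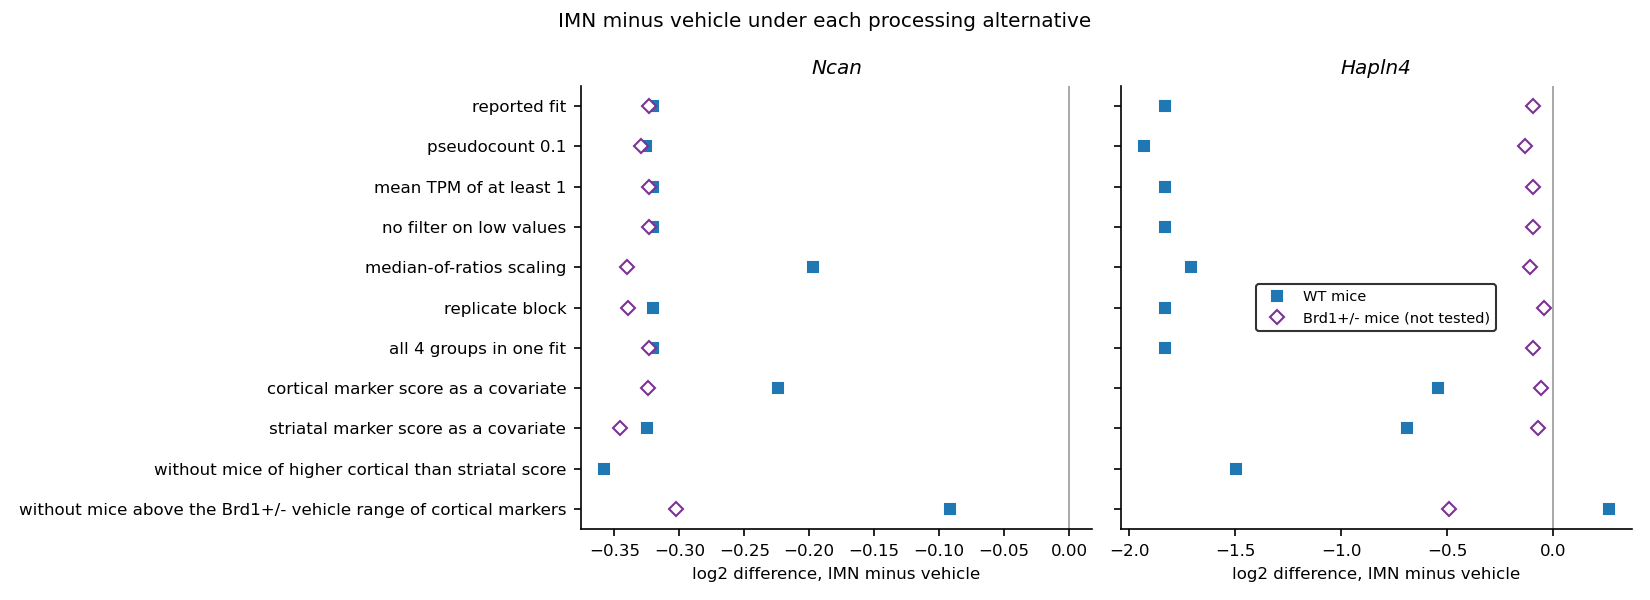
Log2 difference of IMN minus vehicle (horizontal axis) for *Ncan* and *Hapln4* under the reported fit and each alternative (vertical axis), filled for WT and open for Brd1+/- mice, the latter not tested. *Ncan* stays between −0.35 and −0.30 in Brd1+/- mice and runs from −0.36 to −0.09 in WT mice, and *Hapln4* in WT mice runs from −1.93 to 0.26.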

How the data were processed

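The authors sequenced RNA of CPu punches from 31 mice on the BGISEQ-500 and deposited TPM, made with HISAT2 2.1.0 and StringTie 1.3.4 on GRCm38 per the submitters' notes. TPM keeps no depth and the study states only a minimum of reads common to its samples, so reads of each mouse are not known here and precision rests on the spread between mice, each a separate animal. Each mouse sums to between 999787 and 999918 TPM, 0 columns were unused, and symbols of 52403 genes came from GENCODE M21. The study's edgeR test needs counts and was not run. Pairs of groups were fitted with limma 3.58.1 (R 4.3.3; empirical Bayes with trend, two-sided) on log2(TPM + 1), for genes above 0.1 TPM in at least 7 mice, with Benjamini-Hochberg adjustment over all genes. The fit was tested on simulated data. Alternatives were a pseudocount of 0.1, other filters, median-of-ratios scaling, blocking by mouse number, a joint fit of all 4 groups, marker scores as covariates, and mice left out. The striatal covariate and the cortical marker range were chosen after seeing the data, as were exact two-sided permutation tests of the difference in mean log2(TPM + 1) for single members. The members and lists were chosen with earlier results of these data known. All members were named, with up to 3 related genes of smallest p per list and comparison and the 5 genes most like *Ncan*. *Sema3a*, *Hapln2* and *Hyal1* were named after their values were seen. Of 9 marker lists, those for astrocytes, oligodendrocytes and their precursors, and microglia had 0 genes called in any tested comparison, choroid plexus had 0 of the 1 that passed the filter, and endothelium had 1 of 5, lower with IMN in WT mice.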

Additional observations from a re-analysis of the deposited data

Results flagged for a closer look

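In 6 of 40 sets of mice, each being 1 member in 1 group, the highest mouse stood apart from its group by Dixon's criterion. Chance alone sets apart about 1 in 20 such sets. Vehicle administered WT mouse 2 accounted for 2 of these, with *Hapln4* at 144.1 TPM, where the next mouse of its group had 61.2, and *Acan* at 1.712 TPM, where the next had 0.673. This is the mouse whose striatal markers were lowest, and the part of its tissue makeup in these values was not tested. *Hapln1* stood apart in IMN administered WT mouse 1, at 15.5 TPM, and in vehicle administered Brd1+/- mouse 4, at 13.93 TPM, where the remaining mice of these groups had at most 9.58 and 9.38 TPM. *Tnc* was at 0.8201 TPM in IMN administered Brd1+/- mouse 2, and the next mouse of the group at 0.279. *Has2* was at 0.1021 TPM in IMN administered Brd1+/- mouse 7, and the next at 0.0431, both near the limit of what the filter on low values would admit.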

How the results depend on the processing

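Counts of calls in comparisons with vehicle administered WT mice were lower with the tissue scores as covariates and without mice of high cortical markers, the latter leaving 2 of these mice, and TPM sets no limit from depth. IMN against vehicle in WT mice called 1639 genes and 2 members: 3424 genes with all 4 groups in one fit, 338 and 0 members with the cortical score as a covariate, 301 and 1 with the striatal score, 1036 and 1 without the mouse of higher cortical than striatal score, and 429 and 0 without mice above the cortical range. Without a filter 1 member was past the threshold, and with the replicate block 1. Leaving out 1 mouse gave 905 (without vehicle mouse 5) to 3576 genes (without vehicle mouse 8) and 1 to 2 members. Brd1+/- against WT under vehicle called 3153 genes and 1 member: 5005 and 2 with all 4 groups, 540 and 0 with the cortical score, 343 and 0 with the striatal score, 188 and 0 without mice above the range, and 2 members (*Hapln4*, *Tnr*) with the replicate block. Leaving out 1 mouse gave 2036 (without WT mouse 5) to 5154 genes (without WT mouse 8) and 1 to 2 members. Under IMN, 164 genes and 0 members became 97 genes with a mean TPM of at least 1, and 127 to 252 genes (without WT mouse 2) and 0 to 0 members with 1 mouse left out.

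Directions turned as follows. Without mice above the cortical range the log2 differences in WT mice were −0.186 for *Vcan*, 0.0413 for *Hapln3*, 0.261 for *Hapln4*, 0.233 for *Tnr* and 0.0471 for *Tnc*, between genotypes under vehicle −0.22 for *Vcan*, 0.0308 for *Hapln3*, 0.517 for *Hapln4*, 0.23 for *Tnr*, 0.352 for *Csgalnact1* and 0.0218 for *Nptx2*, and under IMN −0.127 for *Vcan*, 0.126 for *Hapln3* and 0.124 for *Tnr*. With the striatal score they were −0.129 for *Vcan* and 0.0129 for *Hapln3* in WT mice, and 0.00194 for *Bcan*, 0.00154 for *Acan* and −0.263 for *Vcan* under vehicle. With the cortical score they were 0.0737 for *Hapln3* and 0.0537 for *Tnr* in WT mice and −0.0861 for *Vcan* under vehicle. *Hapln3* in WT mice was 0.0167 with a pseudocount of 0.1 and 0.00456 with median-of-ratios scaling, which made *Bcan* 0.00446 under IMN. *Vcan* under vehicle was −0.0671 without the mouse of higher cortical score. With 1 mouse left out, ranges that crossed 0 were, in WT mice, *Hapln1* from −0.0356 to 0.146, *Hapln3* from −0.092 to 0.0188 and *Tnc* from −0.153 to 0.0148, under vehicle *Vcan* from −0.0671 to 0.17 and *Hapln1* from −0.00803 to 0.164, and under IMN *Acan* from −0.0568 to 0.0195, *Vcan* from −0.0621 to 0.111, *Hapln3* from −0.0624 to 0.0219 and *Tnr* from −0.145 to 0.00647. In Brd1+/- mice, where IMN was not tested, *Bcan* was 0.0381, *Acan* 0.0573 and *Hapln3* −0.00233 with the striatal score, *Acan* 0.000174 with the cortical score and *Vcan* −0.0928 without mice above the range, and ranges with 1 mouse left out crossed 0 for *Bcan* (−0.0665 to 0.0074), *Acan* (−0.0447 to 0.0316) and *Hapln4* (−0.246 to 0.0193). *Ncan* between genotypes under vehicle, also not tested, was −0.106 and turned to 0.0803 with median-of-ratios scaling, 0.0149 with the cortical score and 0.149 without mice above the range. The cause was not tested.

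The mouse numbers did not pair the samples in the 3 tested comparisons. Correlations of same-numbered mice there passed 0.1 in 2 of 8, 0 of 7 and 2 of 8 pairs, and 0 mice correlated best with their own number. In the Brd1+/- drug contrast 3 of 7 pairs passed 0.1 and 3 mice correlated best with their own number, so pairing there is not settled. With the replicate block *Hapln4* lost its call in WT mice (limma, adjusted p = 0.196), and *Tnr* gained one under vehicle (limma, adjusted p = 0.0267). Of the other values, 356 of single genes and 37 of counts were classed as unchanged. For tested genes this meant the same direction and the same side of the threshold. For values that were not tested it meant only a small shift, and some of these changed direction, as *Bcan* did in Brd1+/- mice. For counts it meant only a limited change in size. The fit without the mouse of higher cortical score had no value for comparisons without WT vehicle mice.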
